A study of Mus musculus with 32 samples.

Results

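Genes of the renin-angiotensin system were followed in the cardiac ventricle of wild type mice, of transgenic mice in cardiac hypertrophy and of transgenic mice in cardiac failure. The members were all probe sets whose single annotated gene symbol was Agtr1a, Agtr1b, Agtr2, Agtrap, Agt, Ace or Ren1. This gave 9 probe sets of 24965, on 2 types of Affymetrix expression array, 7 belonging to the first type and 2 to the second, for 5 of the 7 genes, among 13660 genes with a probe set of their own. No probe set with a single annotation to Agtr1b or Ren1 was found, so these genes were not analysed here. Total RNA was hybridised to 16 arrays of each type, 5 wild type, 8 hypertrophy and 3 failure. The wild type mice had a normal cardiac phenotype, and both transgenic groups carried a transgene named AT1, described as cardiac specific. The labels do not spell AT1 out; it is read here as the type 1 receptor of angiotensin II. The labels name neither the promoter of the transgene nor the species of its receptor, and give no age, sex, strain or number of transgenic lines. Nor do they state whether each array stands for its own animal; p-values then measure spread among arrays only, and some of it may be technical.

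In the renin-angiotensin system the protease renin cuts angiotensinogen to angiotensin I, and angiotensin-converting enzyme trims this to angiotensin II. The peptide acts mainly through the type 1 receptor, which in mice is encoded by 2 genes, Agtr1a and Agtr1b, and couples to Gq proteins; it raises blood pressure and promotes growth of cardiomyocytes and matrix deposition in the heart. The type 2 receptor, encoded by Agtr2, is mostly a receptor of fetal tissue and often opposes the type 1 receptor. Agtrap encodes a small membrane protein that binds the tail of the type 1 receptor and favours its internalisation.

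Of the 9 probe sets, 7 passed the filter on dim probe sets, which asked for a signal at or above the array's own median in at least 3 arrays, and these 7 represent Agtr1a, Agtrap, Agt and Ace. In failure against wild type, 1 of the 7, an Agtrap probe set, was called at an adjusted p under 0.05 in the limma fit over all tested probe sets; of all probe sets, 0.143% (of 6980, first type) and 0.357% (of 7004, second type) were called. In that comparison 3 of 7 had an unadjusted limma p under 0.05, against 10.7% and 12.2% of all. In hypertrophy against wild type 0 of 7 were called, against 0% and 0.171% of all, and 2 of 7 had an unadjusted limma p under 0.05, against 4.47% and 9.77% of all. These 2 were the probe sets of a single gene, Agtrap, and they ran in opposite directions. The same pair was among the 3 in failure against wild type, again in opposite directions, so the counts do not stand for separate genes. In failure against hypertrophy 0 of 7 were called, against 0% and 0.0286% of all, and 2 of 7 had an unadjusted limma p under 0.05, against 10.1% and 8.67%. The median log2 difference of the 7 was -0.0359 between hypertrophy and wild type, 0.143 between failure and wild type, and 0.17 between the transgenic groups; the last is the value of Ace 161224_f_at, which passed the filter through its brightest arrays only. Over all tested probe sets these medians were -0.0127, 0.0412 and 0.0516 for the first type, and for the second 0.0317, 0.0592 and 0.0279. The failure and the hypertrophy group were set against the same 5 wild type arrays, so those comparisons share their controls.

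Several arrays stood apart. The ratio of 5' to 3' signal of the Gapdh control was only 0.468 and 0.0487 in hypertrophy replicates 6 and 7, while wild type spanned 0.806 to 0.955. The same ratio of the Actb control was 0.623 ± 0.0818 (SD, n = 5) for wild type, while failure arrays had 0.962 ± 0.175 (SD, n = 3). Both ratios were taken per replicate number and not separately for each array type, so they do not show RNA quality for each type. The summed signal of 6 fibroblast markers reached 5751 and 6544 in the first and second failure replicates, stood at 2967 in the third, and spanned 2908 to 3622 in wild type and 1738 to 4761 in hypertrophy. Most of this sum in wild type came from Dcn, whose mean signal was 2508 there, 2323 in hypertrophy and 2942 in failure. All 7 markers of ventricular cardiomyocytes passed the filter, with summed signals of 46540 to 52980 in wild type, 43890 to 54230 in hypertrophy and 48530 to 49880 in failure. In samples of whole ventricle, a change in the number of cells of a type and a change in RNA per cell cannot be told apart.

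The receptor genes come first, since the transgene should raise the type 1 receptor. The only Agtr1a probe set, 115838_at on the second type, had signals of 272, 262, 265, 217 and 207 in wild type replicates 1 to 5. In hypertrophy its lowest signal was 174, its median 207 and its highest 305, the last in replicate 4. Failure replicates 1 to 3 gave 164, 210 and 240. The 3 groups overlapped, and none of the transgenic arrays other than hypertrophy replicate 4 exceeded the highest wild type signal. Group means ran from 245 ± 30.0 (SD, n = 5) in wild type through 214 ± 42.7 (SD, n = 8) with hypertrophy to 205 ± 37.8 (SD, n = 3) in failure, and no neighbours in this order differed beyond their spread. The log2 difference from wild type was -0.20 ± 0.14 (SE; 95% interval -0.49 to 0.0819; adjusted p = 0.672) in hypertrophy and -0.27 ± 0.17 (95% interval -0.633 to 0.0994; adjusted p = 0.563) in failure. Between failure and hypertrophy it was -0.06 ± 0.16 (95% interval -0.402 to 0.277). Leaving out failure replicate 1, the dimmest array of its group, brought the failure difference from wild type to -0.118 and turned the sign of that from hypertrophy to 0.086; without hypertrophy replicate 4 the latter was 0.0129. The signal was not close to the floor: it lay between the 73.1 and the 88.7 percentile of its own array in all 16 arrays. Where on the transcript these probes lie, and whether they read the transgene, is not stated by the labels, so the probe set does not check the transgene.

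Agtr2 had 2 probe sets on the first type, and neither passed the filter. In 161212_r_at, whose suffix marks a set built with relaxed selection rules, 15 of 16 arrays lay below the floor of 39.5 and 8 of them at 1, the lowest deposited value. Its highest signals were 39.8 in hypertrophy replicate 6, one of the arrays with a low Gapdh ratio, and 12.5 in wild type replicate 1; all other arrays were at 6.25 or lower. No fold is given for it. The second probe set, 94934_at, was brighter but dim: wild type replicates 1 to 5 gave 91.1, 106, 73.9, 63.9 and 38.6, hypertrophy spanned 46.9 to 111 with a median of 84.2, and failure gave 96.6, 97.5 and 56.4. It reached its array's median in 1 of 16 arrays and fell below the floor in 1. The groups overlapped fully. In a fit without the filter its log2 difference from wild type was 0.17 ± 0.27 (SE; 95% interval -0.409 to 0.753) in hypertrophy and 0.19 ± 0.35 (95% interval -0.554 to 0.934) in failure. In the plot of receptor signals the fetal type receptor thus has no level that could be ordered between groups.

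**Figure D1:**
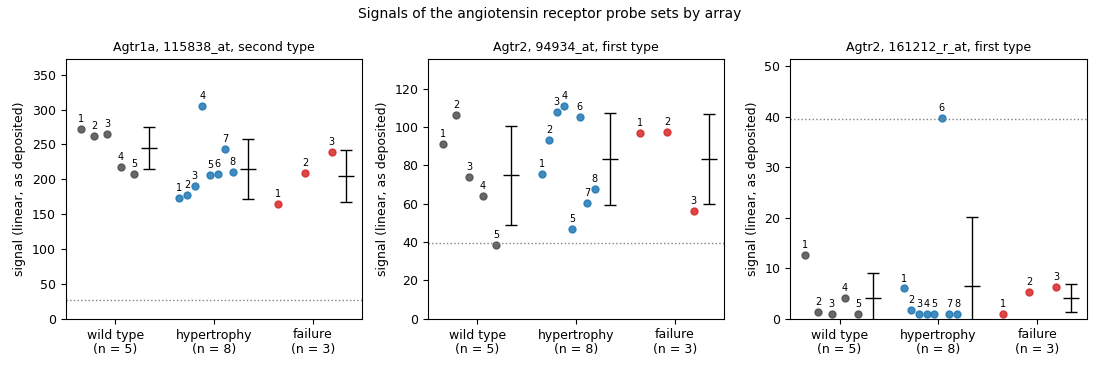
Deposited linear signals (y axis) of the Agtr1a probe set and of both Agtr2 probe sets by group (x axis), 1 point per array with its replicate number; horizontal bars and whiskers give mean ± SD and dotted lines the floor. Agtr1a lies between 164 and 305 in all groups with overlap, and all but 1 of the 161212_r_at signals lie below the floor.

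Agtrap, whose protein binds the type 1 receptor, had the only call among the members, in failure against wild type, and its 2 probe sets ran in opposite directions. Its 300-base promoter window in RefSeq (GRCm38.p6, chr4:148088015-148088314, minus strand, 250 bases before to 50 after the start) is shown because Agtrap was the gene with a call. Capitals mark the matches to CACGTG and GGGCGG, searched on both strands together with TATAAA.

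Agtrap: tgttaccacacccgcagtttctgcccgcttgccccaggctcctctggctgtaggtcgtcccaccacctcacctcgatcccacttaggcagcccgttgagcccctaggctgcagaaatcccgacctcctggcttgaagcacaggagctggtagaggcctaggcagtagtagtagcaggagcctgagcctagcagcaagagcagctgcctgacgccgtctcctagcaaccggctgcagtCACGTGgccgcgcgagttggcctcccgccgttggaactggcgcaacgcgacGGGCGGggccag

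The CACGTG begins 13 bases before the start, and 7.15% of the 32851 promoter windows of this length hold such a match. The GGGCGG begins 38 bases after it, and 35.7% of windows hold one. No TATAAA was found in these letters. The window is 64.7% G and C, while the median window is at 52.7%.

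The first Agtrap probe set, 95355_at on the first type, had signals of 111, 92.1, 104, 106 and 87.9 in wild type replicates 1 to 5. In hypertrophy the lowest signal was 115, in replicate 1, the median 141 and the highest 158, in replicate 5. Failure replicates 1 to 3 gave 177, 219 and 139. Every hypertrophy and every failure array lay above all 5 wild type arrays, while failure replicate 3 lay inside the hypertrophy range. Group means were 100.2 ± 9.72 (SD, n = 5) in wild type, 139 ± 13.9 (SD, n = 8) with hypertrophy and 178 ± 40.2 (SD, n = 3) in failure. The array percentile of this probe set had a median of 47.6 in wild type, 57.4 in hypertrophy and 63.6 in failure, so it moved from just under the middle of the array to above it.

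In failure 95355_at rose by 0.81 ± 0.14 (log2, SE; 95% interval 0.516 to 1.11), which is 1.76-fold, with adjusted p = 0.0263 in limma. Every transgenic array had this probe set at or above its median, but among the wild type arrays only replicate 1 did. Its presence among the tested probe sets therefore depended on the transgenic arrays. A limma fit without the filter gave the same failure difference from wild type, 0.81, with adjusted p = 0.0247. The groups did not overlap, which held for 13.3% of all probe sets in this comparison. In hypertrophy the log2 difference was 0.47 ± 0.11 (95% interval 0.242 to 0.707), or 1.39-fold, and was not called (adjusted p = 0.59), although the groups did not overlap; this was so for 0.172% of all probe sets on this type, 12 of 6980, and for 0.7% on the second. It had the fourth smallest unadjusted p of that comparison and the sixth smallest in failure against wild type. Failure exceeded hypertrophy by 0.34 ± 0.13 (95% interval 0.0633 to 0.615; adjusted p = 0.394), so the order of the transgenic groups did not pass. None of the 7 probe sets separated failure from hypertrophy without overlap, against 2.54% and 1.78% of all. The failure call was lost without any 1 wild type array (adjusted p between 0.0563 and 0.0685), without failure replicate 1 (0.81, adjusted p = 0.179) and without failure replicate 2 (0.65, adjusted p = 0.258), and with the replicate number as a block (0.83, adjusted p = 0.154). Without failure replicate 3 the difference was 0.98 (adjusted p = 0.00446). The fibroblast marker sum was above all wild type arrays in failure replicates 1 and 2 and within their range in replicate 3, and in hypertrophy it ran both below and above that range. The Actb ratio was 1.1, 0.765 and 1.02 in failure replicates 1 to 3, above the wild type range of 0.545 to 0.752, and its highest hypertrophy value, 0.992, was in replicate 1, the hypertrophy array with the lowest 95355_at signal. The part of fibroblast content and RNA quality in the failure difference was not tested.

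The second Agtrap probe set, 108417_at on the second type, went the other way. Wild type replicates 1 to 5 gave 106, 88.6, 81.9, 81.7 and 98.5. The hypertrophy signals had a lowest value of 55.2, in replicate 1, a median of 70.9 and a highest of 89.5, in replicate 8. Failure replicates 1 to 3 gave 76.3, 61.3 and 73.9. All 3 failure arrays lay below all wild type arrays, which held in either direction for 13.8% of probe sets of this type, and the hypertrophy arrays overlapped with wild type. The log2 difference from wild type was -0.37 ± 0.12 (SE; 95% interval -0.627 to -0.112; adjusted p = 0.349) in hypertrophy and -0.37 ± 0.16 (95% interval -0.703 to -0.0426; adjusted p = 0.336) in failure; neither passed. Failure and hypertrophy differed by -0.0033 ± 0.15 (95% interval -0.309 to 0.303), with a sign that turned when any 1 of hypertrophy replicates 2, 3, 5 and 8 or failure replicate 2 was left out. The probe set reached its array's median in all 5 wild type arrays, 3 of 8 hypertrophy arrays and 0 of 3 failure arrays.

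The probe sets of Agtrap therefore disagreed in direction in both comparisons with wild type, and for neither comparison did their 95% intervals overlap. They were measured on different array types, so no test was made between them. Over the 8 hypertrophy sample numbers, which the labels repeat on both types, their log2 signals had a Pearson r of 0.224 (exact permutation p = 0.59, adjusted p = 0.96 over 2 relations) and a Spearman rho of 0.143 (exact permutation p = 0.752, adjusted p = 0.752). Without the 2 samples farthest from the median r was -0.494. The labels do not state that equal numbers on the array types are the same RNA: among 855 genes tested on both types, 10 of 16 first type arrays had their best match within the group in the second type array of the same number. The groups held 5, 8 and 3 arrays, and the median r of same-number arrays was 0.0587.

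**Figure D2:**
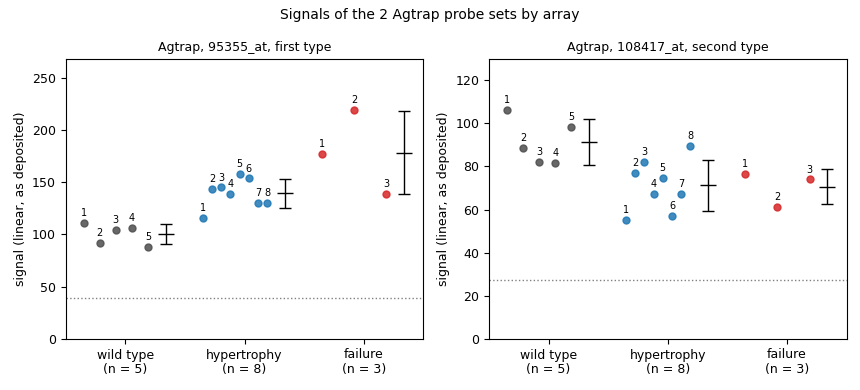
Deposited linear signals (y axis) of the Agtrap probe sets 95355_at (first array type) and 108417_at (second type) by group (x axis), 1 point per array with its replicate number; bars and whiskers give mean ± SD and dotted lines the floor. In 95355_at all transgenic arrays lie above the wild type maximum of 111, whereas in 108417_at all failure arrays lie below the wild type minimum of 81.7.

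Agt encodes angiotensinogen, the precursor of all angiotensin peptides. Its only probe set, 101887_at on the first type, had signals of 154, 165, 157, 155 and 197 in wild type replicates 1 to 5. The hypertrophy arrays spread more widely, with a lowest signal of 109.5 in replicate 7, a median of 166 and a highest of 216 in replicate 3. Failure replicates 1 to 3 gave 182, 173 and 192. The failure arrays lay within the wild type range, and the hypertrophy range enclosed it. Means were 166 ± 18.1 (SD, n = 5), 165 ± 37.5 (SD, n = 8) and 182 ± 9.32 (SD, n = 3) in wild type, hypertrophy and failure. The log2 difference from wild type was -0.0359 ± 0.145 (SE; 95% interval -0.343 to 0.271; adjusted p = 0.992) in hypertrophy and 0.14 ± 0.19 (95% interval -0.25 to 0.536; adjusted p = 0.847) in failure, and failure against hypertrophy gave 0.18 ± 0.17 (95% interval -0.185 to 0.543). The hypertrophy difference has no direction: it was 0.0845 without hypertrophy replicates 6 and 7, whose Agt signals were 143 and 109.5. The probe set reached its array's median in 15 of 16 arrays.

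Ace encodes angiotensin-converting enzyme, in the heart mainly an enzyme of endothelial cells, and a shorter form made in testis starts within the gene. RefSeq (GRCm38.p6) has 2 promoter windows for it, both on the plus strand. They are shown because the array carries 3 Ace probe sets that behaved differently, and which start each probe set lies behind is not stated by the files. Capitals mark matches to GGGCGG and to TATAAA (printed as TTTATA, its other strand). The first is chr11:105967698-105967997 and the second chr11:105974939-105975238.

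Ace, first start: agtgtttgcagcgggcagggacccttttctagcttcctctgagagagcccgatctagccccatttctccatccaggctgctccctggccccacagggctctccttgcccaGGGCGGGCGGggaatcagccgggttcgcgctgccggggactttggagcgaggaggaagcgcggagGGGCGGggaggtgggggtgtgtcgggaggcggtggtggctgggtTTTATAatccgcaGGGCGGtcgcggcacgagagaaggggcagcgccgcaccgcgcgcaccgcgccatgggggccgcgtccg

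Ace, second start: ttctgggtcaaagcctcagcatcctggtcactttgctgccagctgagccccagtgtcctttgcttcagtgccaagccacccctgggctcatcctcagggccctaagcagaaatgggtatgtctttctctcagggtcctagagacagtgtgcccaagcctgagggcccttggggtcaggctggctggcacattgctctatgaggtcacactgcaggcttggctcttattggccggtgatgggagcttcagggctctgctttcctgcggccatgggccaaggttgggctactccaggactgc

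The first window holds 4 matches to GGGCGG, 2 of which overlap, and 1 to TATAAA, 31 bases before the start on the opposite strand. TATAAA occurs in 13.6% of all windows. None of the 3 motifs was found in the second. Windows were also present for Agt, Agtr1b, Ren1 and Agtr2: the first 3 each hold 1 TATAAA, beginning 30, 31 and 29 bases before the start, while none of the 3 motifs was found in the Agtr2 window.

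The Ace probe set 101428_at was bright in every array. Wild type replicates 1 to 5 gave 378, 352, 418, 416 and 398. In hypertrophy the lowest signal was 318, the median 367 and the highest 455. Failure gave 455, 419 and 381. The groups overlapped, and the log2 difference from wild type was -0.05 ± 0.10 (SE; 95% interval -0.252 to 0.155) in hypertrophy and 0.09 ± 0.12 (95% interval -0.17 to 0.351) in failure, the latter -0.0033 with median scaling. Between failure and hypertrophy it was 0.139 ± 0.115 (95% interval -0.102 to 0.381).

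The probe set 160927_at was higher in part of the failure arrays. Wild type replicates 1 to 5 gave 329, 331, 360.4, 390.3 and 328. The hypertrophy signals had a lowest value of 309, a median of 353 and a highest of 477, in replicate 1. Failure replicates 1 and 2 gave 524 and 535, above every other array, and replicate 3 gave 377, inside the wild type range. Failure averaged 479 ± 88.2 (SD, n = 3), hypertrophy 363 ± 55.3 (SD, n = 8) and wild type 348 ± 27.5 (SD, n = 5). Failure differed from wild type by 0.45 ± 0.15 (log2, SE; 95% interval 0.136 to 0.759; adjusted p = 0.262) and from hypertrophy by 0.40 ± 0.14 (95% interval 0.108 to 0.686; adjusted p = 0.341), and hypertrophy from wild type by 0.05 ± 0.12. None of these was called. Without failure replicate 3 the difference from wild type was 0.61, still not called (adjusted p = 0.0906). Of 6 endothelial markers 4 passed the filter, and their summed signal was 699, 529 and 672 in failure replicates 1 to 3 and 519 to 674 in wild type. In hypertrophy the sum spanned 310 to 772. The 4 markers diverged in failure against wild type: Tie1 was at 0.455, Cdh5 at 0.0858, Emcn at -0.0223 and Kdr at -0.227 (log2), none called. The fibroblast sum was high in failure replicates 1 and 2 as well. The part of either cell type in the result was not tested.

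The third Ace probe set, 161224_f_at, carries the suffix of sets whose probes can also match related sequences, and it was dim. It passed the filter through 3 arrays only, hypertrophy replicate 7 and failure replicates 1 and 2. Wild type gave 76.6, 34.2, 74.4, 55.1 and 33.5, hypertrophy spanned 30.7 to 124 with a median of 79.2, and failure gave 130.04, 127 and 38.6. In all, 4 of 16 arrays lay below the floor, and the groups overlapped. The log2 difference from wild type was 0.496 ± 0.301 (SE; 95% interval -0.138 to 1.13) in hypertrophy and 0.67 ± 0.39 (95% interval -0.147 to 1.48) in failure. Since the arrays that brought it past the filter are all transgenic, its presence among the tested probe sets depends on their being bright, and these differences are given as a description only. Failure replicate 3 was the lowest failure array in all 3 Ace probe sets. Over the 8 hypertrophy arrays 101428_at and 160927_at had a Pearson r of -0.011 (exact permutation p = 0.96, adjusted p = 0.96) and a Spearman rho of -0.238 (exact permutation p = 0.582, adjusted p = 0.752), and r was -0.0179 without the 2 farthest arrays.

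**Figure D3:**
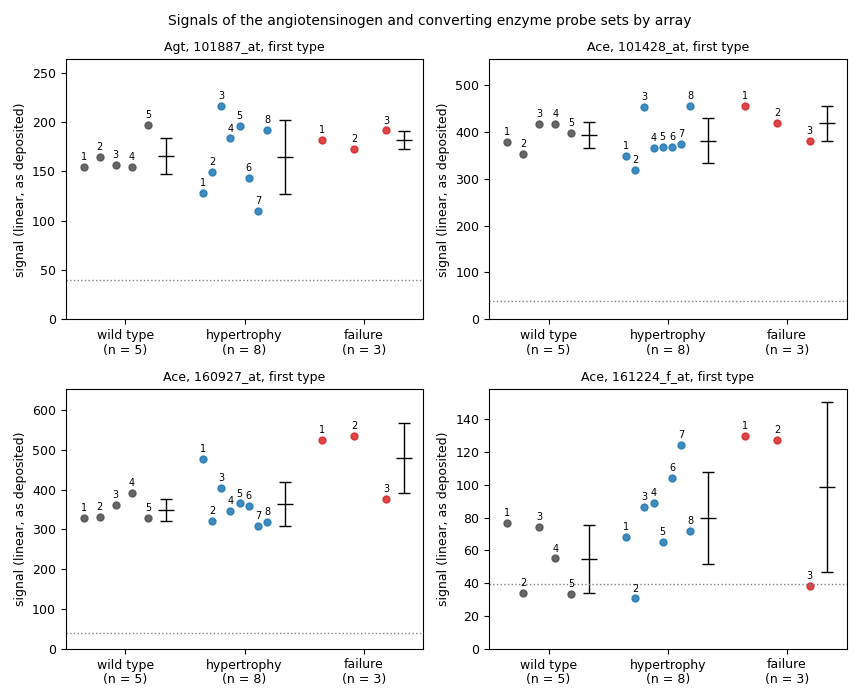
Deposited linear signals (y axis) of the Agt probe set and the 3 Ace probe sets, all on the first array type, by group (x axis), 1 point per array with its replicate number; bars and whiskers give mean ± SD and dotted lines the floor. Failure replicates 1 and 2 are the highest arrays in Ace 160927_at and 161224_f_at, while Agt and Ace 101428_at overlap across groups.

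**Figure D4:**
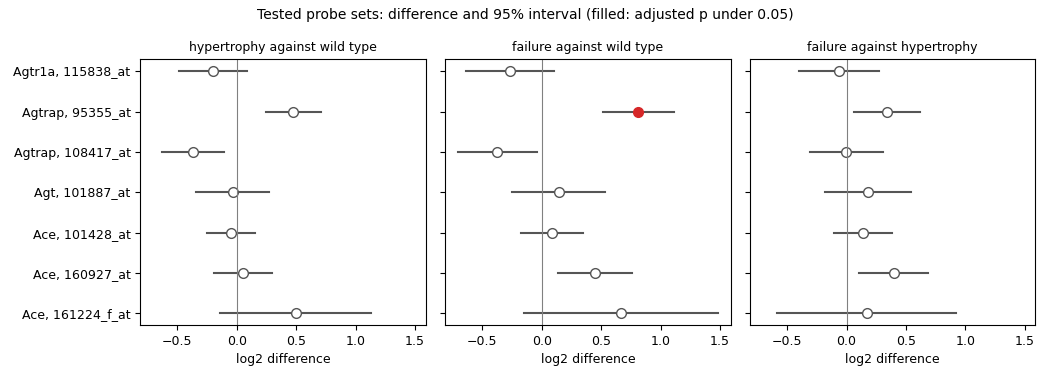
Log2 differences (x axis) of the 7 tested probe sets (rows) in each of the 3 comparisons (panels), with 95% intervals from the limma fit; the filled point passed an adjusted p of 0.05. Only Agtrap 95355_at in failure against wild type is filled, at 0.81, and the other Agtrap probe set lies on the other side of 0.

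For each tested member, the 3 named probe sets of other genes with the most similar signal over the 16 arrays of its type were listed by Pearson r of log2 signals, as a description. Agtrap 95355_at was most like Tgfbi (r = 0.865), Mgp (r = 0.851) and Aldh1a1 (r = 0.841), chosen among 6175 probe sets; within groups, that is after subtracting group means, these were 0.799, 0.63 and 0.722. Tgfbi and Mgp encode matrix proteins. Agtrap 108417_at was most like Zfp957, Lpgat1 and Tjp3 (r = 0.821, 0.777 and 0.776), chosen among 6035 probe sets of the other array type. No gene was shared between the lists of the Agtrap probe sets. Each list was drawn from its own array type only, so this does not bear on whether the Agtrap probe sets agree. Agtr1a was most like Ccdc39, Sh3kbp1 and Zadh2 (r = 0.791, 0.776 and 0.755). Agt was most like Coro1b, Rhoc and Nrbp2 (r = 0.883, 0.852 and 0.851). For Ace the likest were Tmsb10, Hint1 and Hdac7 (101428_at, r = 0.847, 0.838 and 0.832), Crygd, Hps1 and AI506816 (160927_at, r = 0.854, 0.823 and 0.816) and Mc1r, B3gnt2 and Ero1a (161224_f_at, r = 0.916, 0.88 and 0.864). The arrays behind each r share groups, depth of signal and RNA quality.

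Other genes of the pathway were read from 4 lists, and 0 of their tested members were called in limma in any of the 3 comparisons. Of 18 other angiotensin peptidases and receptors 12 were tested, and 1, 1 and 2 of them had an unadjusted p under 0.05 between hypertrophy and wild type, failure and wild type, and failure and hypertrophy, in that order; over all probe sets these shares were 4.47% and 9.77%, 10.7% and 12.2%, and 10.1% and 8.67% on the array types, and the list's counts are near them. Their medians were 0.063, 0.0345 and -0.00499 (log2). Cma1, which encodes a mast cell chymase, had 4145 ± 81.1 (SD, n = 5) in wild type, 3758 ± 383 (SD, n = 8) with hypertrophy and 3405 ± 415 (SD, n = 3) in failure. Its log2 difference in failure against wild type was -0.29 ± 0.11 (adjusted p = 0.337), with groups that did not overlap. Groups did not overlap in that comparison for 13.3% of all probe sets on the first array type, which measured Cma1. These values come from the brightest tested of the 3 Cma1 probe sets. Of the mast cell markers, Cpa3, Kit and Mcpt4 did not pass the filter, and Tpsb2 differed by -0.18 ± 0.13 in the same comparison. Thop1, an endopeptidase that cleaves angiotensin I, differed by 0.43 ± 0.16 in hypertrophy against wild type (adjusted p = 0.960) and by -0.45 ± 0.19 in failure against hypertrophy (adjusted p = 0.442). Ctsd, the lysosomal aspartic protease cathepsin D, differed by 0.44 ± 0.14 in failure against hypertrophy (adjusted p = 0.300) and by 0.30 ± 0.15 in failure against wild type (adjusted p = 0.496).

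Of 27 genes of type 1 receptor signalling 21 were tested, with 2, 3 and 2 at an unadjusted p under 0.05 in the same order of comparisons, again near the shares of all probe sets just given, and medians of -0.0464, 0.0436 and 0.0409. Grk5, a kinase that phosphorylates activated G protein coupled receptors, had 152 ± 29.8 (SD, n = 5) in wild type and 232 ± 33.0 (SD, n = 3) in failure, a log2 difference of 0.62 ± 0.21 (adjusted p = 0.279), and differed from hypertrophy by 0.43 ± 0.20 (adjusted p = 0.488). Arrb2, the arrestin that binds phosphorylated receptors, differed from wild type by -0.24 ± 0.09 in hypertrophy and -0.32 ± 0.11 in failure (adjusted p = 0.378 and adjusted p = 0.235). Camk2d, the main cardiac calmodulin-dependent kinase, differed by -0.76 ± 0.34 in hypertrophy against wild type (adjusted p = 0.485). Plcb3, a phospholipase driven by Gq, differed by -0.52 ± 0.25 in failure against hypertrophy (adjusted p = 0.496).

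Of 15 genes known to respond to angiotensin II 8 were tested, with 0, 5 and 3 at an unadjusted p under 0.05, against 4.47%, 10.7% and 10.1% of all probe sets on the first array type, which measured the 8, and medians of 0.089, 0.974 and 0.689. All 8 were above 0 in both comparisons of failure. This list, like the others, was chosen with earlier results of these data known. Its counts and medians are therefore a description only. Fibroblast markers were higher in failure as well: all 6 were above 0 against wild type, with a median of 0.818, and 0 were called. Apart from the atrial list, the other marker lists with tested genes had medians from -0.238 (mast cell) to 0.186 (smooth muscle and pericyte) against wild type. The summed signal of 3 atrial markers was 4051 to 5901 in failure, 957.1 to 4630 in hypertrophy and 1179 to 3344 in wild type. Of these 3, Myl7, an atrial myosin light chain, differed from wild type by 1.60 ± 0.42 (adjusted p = 0.149), Myl4 by -0.61 ± 0.87 (adjusted p = 0.866), and Nppa, which is also in the list of responsive genes, by 1.26 ± 0.54 (adjusted p = 0.410). The fourth atrial marker, Sln, did not pass the filter. Most of the atrial sum came from Nppa, whose mean signal was 3946 in failure and 1805 in wild type. The part of atrial tissue or fibroblasts in the list's values was not tested. Ccn2, a matricellular growth factor, had 484 ± 191 (SD, n = 5) in wild type, 549 ± 221 (SD, n = 8) with hypertrophy and 1697 ± 249.9 (SD, n = 3) in failure, with log2 differences of 1.88 ± 0.39 from wild type (adjusted p = 0.0587) and 1.75 ± 0.36 from hypertrophy (adjusted p = 0.128). Nppb, a natriuretic peptide gene, differed by 1.04 ± 0.38 from wild type and 1.07 ± 0.35 from hypertrophy in failure (adjusted p = 0.319 and adjusted p = 0.312). In hypertrophy against wild type the smallest p-values of the list were those of the skeletal actin gene Acta1, at 0.75 ± 0.38, and the endothelin gene Edn1, at 0.13 ± 0.12. Of 6 aldosterone and mineralocorticoid genes only Sgk1 and Hsd11b2 were tested. Sgk1, a kinase induced by mineralocorticoids, differed in failure by 0.535 ± 0.157 from wild type and 0.525 ± 0.146 from hypertrophy (adjusted p = 0.218 and adjusted p = 0.211), without overlap in either. On the first array type, which measured Sgk1, this held for 13.3% of all probe sets against wild type and 2.54% against hypertrophy. In failure, Ctsd, Ccn2 and Nppb of the other lists also overlapped with neither group. Hsd11b2, which inactivates corticosterone, differed by -0.30 ± 0.13 from wild type (adjusted p = 0.417) and -0.23 ± 0.12 from hypertrophy (adjusted p = 0.528). Of the pathway list genes, Cma1, Ctsd, Gnaq, Grk5, Arrb2, Ccn2, Nppa, Nppb, Acta1 and Hsd11b2 also did not overlap with wild type in failure. The lists held 12 tested peptidases and receptors, 21 signalling genes, 8 responsive genes and 2 aldosterone and mineralocorticoid genes. Gnaq and Arrb2 were measured by the second array type, where 13.8% of all probe sets did not overlap in this comparison. The share of 13.3% given above applies to the other genes named.

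**Figure D5:**
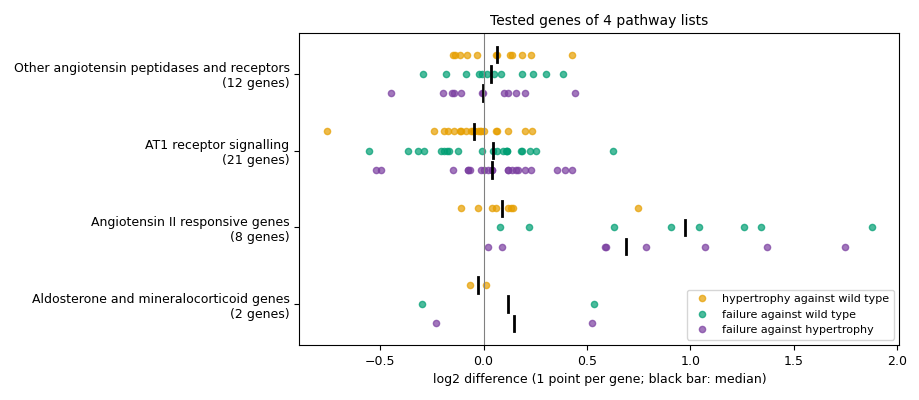
Log2 differences (x axis) of the tested genes of 4 pathway lists (rows) in the 3 comparisons (colours), 1 point per gene with a black bar at the median; none was called. The genes known to respond to angiotensin II have medians of 0.974 and 0.689 in the comparisons of failure, and the other lists with more than 2 tested genes have medians between -0.0464 and 0.063. All 4 lists were chosen with earlier results of these data known, so the medians are a description only.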

How the data were processed

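The authors deposited 1 linear intensity per probe set and array, between 1 and 10665 (first type) or 11877 (second type); the scanning, summarising and scaling steps behind them: not given in the sources used here. Deposited values were kept without further scaling if medians or trimmed means varied by under 5% between arrays (coefficient of variation). Trimmed means met this, at 4.82% and 3.31%; medians varied by 6.60% and 4.65%. A floor at percentile 20 of each type (39.5 and 27.5) was set before taking log2, so folds of dim probe sets come out too small. Probe sets at or above their array's median in at least 3 arrays, controls left out, were tested (6980 of 12488 and 7004 of 12477) with limma 3.58.1 in R 4.3.3, 1 model per type over 16 arrays, two-sided, with Benjamini-Hochberg adjustment per type and comparison at 0.05. The number of arrays limits the precision: the median standard error was 0.13 for hypertrophy and 0.17 for failure against wild type. The fit was tested on simulated data.

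Gene names came from the platform's annotation, and outdated symbols were replaced by those of GRCm38.p6: 10833 and 10581 had 1 gene, 396 and 178 several, 1193 and 1652 none. Promoter windows are from RefSeq; 6 of the 7 genes had one. Members, lists, markers and tests were chosen with earlier results of these data known. All members are named; of each pathway list, any called gene and otherwise the 2 with the smallest p per comparison. A list gene is represented by its brightest tested probe set, on the first type where it is there. Figures used matplotlib 3.10.9.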

Additional observations from a re-analysis of the deposited data

Results flagged for a closer look

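Within groups of wild type and hypertrophy arrays, 3 single signals lay far from the rest by Dixon's gap test at 95%, among 18 groups checked, where chance alone gives about 1 in 20. The Agtr2 probe set 161212_r_at had 12.5 in wild type replicate 1, against 4.18 or less in the other 4 arrays, and 39.8 in hypertrophy replicate 6, against 6.004 or less in the other 7. This probe set stood at 1, the lowest deposited value, in 2 of 5 wild type and 5 of 8 hypertrophy arrays. With such tied values the chance rate of the gap test need not hold. Agt had 197 in wild type replicate 5, where the other wild type arrays spanned 154 to 165; without this array the hypertrophy difference of Agt was 0.0282 (log2).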

How the results depend on the processing

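Of 534 member values under other settings, 511 kept direction and call, 8 lost the call (all Agtrap 95355_at in failure against wild type) and 15 turned sign, none of the last called in the fit as reported. The replicate numbers did not pair the samples: 5 of 22 same-number pairs correlated above 0.1 (r from -0.191 to 0.363), and 8 of 44 checks matched best with the own number. With the replicate block the count of called members in failure against wild type went from 1 to 0, Agt in hypertrophy against wild type to 0.0579 and Agtr1a in failure against hypertrophy to 0.0032; the block gave 3 calls (first type) and 6 (second) in failure against wild type, 3 (second) in hypertrophy against wild type and 0 (second) in failure against hypertrophy. Ace 101428_at in failure against wild type was -0.00327 with median scaling, and Agt in hypertrophy against wild type 0.0845 without hypertrophy 6 and 7.

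Counts of all called probe sets moved as follows. In failure against wild type the first type, at 10, gave 30 with quantile scaling (20 higher, 10 lower, against 9 and 1 as reported), 33 with median scaling (15 and 18), 6 with no floor, 22 with no filter, 122 with only the groups compared, 36 without hypertrophy 6 and 7 and 17 adjusted over both types. The second type, at 25 (20 higher, 5 lower), gave 40 with median scaling (19 and 21), 55 with no filter, 193 with only the groups compared and 70 without hypertrophy 6 and 7. In hypertrophy against wild type the first type, at 0, gave 1 with no filter, and the second, at 12, gave 7 without hypertrophy 6 and 7 and 7 adjusted over both types. In failure against hypertrophy the first type, at 0, gave 10 with no filter; the second, at 2, gave 12 with no filter and 0 with no floor, with only the groups compared, without hypertrophy 6 and 7 and adjusted over both types. The cause of these shifts was not tested.

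Leaving out 1 array at a time, called counts ran from 0 to 1 (first type) and 5 to 26 (second) in hypertrophy against wild type, 0 to 51 and 4 to 79 in failure against wild type, and 0 to 24 and 0 to 14 in failure against hypertrophy; members called in failure against wild type ran from 0 to 1. Differences that turned sign ran from -0.097 to 0.0432 (Agt) and -0.00738 to 0.0935 (Ace 160927_at) in hypertrophy against wild type, and from -0.185 to 0.086 (Agtr1a) and -0.0639 to 0.0949 (Agtrap 108417_at) in failure against hypertrophy. Ace 161224_f_at passed the filter in 13 of these 16 settings only and has no value in the others. Signal over background limits both Agtr2 probe sets and Ace 161224_f_at.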
